A study of Arabidopsis thaliana with 6 samples.

Results

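A set of 10 touch genes and calmodulin-like genes was followed in Arabidopsis thaliana seedlings engineered to overexpress the short reading frame sORF2146, and in seedlings that carry the empty vector. They were TCH2 (AT5G37770), TCH3 (AT2G41100), TCH4 (AT5G57560), CML9 (AT3G51920), CML11 (AT3G22930), CML37 (AT5G42380), CML38 (AT1G76650), CML39 (AT1G76640), CML41 (AT3G50770) and CML42 (AT4G20780), found by looking up these locus identifiers in the names of the array probes. Each locus had 1 probe, so 10 of the 35475 gene identifiers on the array were members. One group of 3 arrays came from sORF2146ox transgenic seedlings and the other group of 3 arrays from seedlings transformed with empty pMDC32. All seedlings were 14 days old, grew on solid MS medium with a day of 14 hours and a night of 10 hours, and were labelled as seedling tissue. The labels name neither the promoter that drives sORF2146 nor the number of independent lines behind the replicates. The series asks what sORF2146 does in the plant, and its title concerns flowering.

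Touch genes are named for transcripts that accumulate within minutes of a plant being handled, sprayed or bent by wind. Mechanical stimulation opens calcium channels, and the rise of free calcium in the cytosol is read by proteins with EF-hand domains, among them the conserved calmodulins and the more diverse calmodulin-like proteins (CMLs). TCH2 and TCH3 encode such calcium sensors, while TCH4 encodes an enzyme that cuts and rejoins xyloglucan in the cell wall. Many CML transcripts also respond to wounding, pathogens, cold or loss of oxygen.

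The share of probes well above background ranged from 65.3% to 68.8% over the arrays, and no spot was saturated. The probes of all 10 members were well above background on all 6 arrays. The overexpressor arrays shared 1 slide and the control arrays another, so the effects of slide and of group cannot be told apart in any comparison below. Vector control replicate 1 stood apart from the other arrays in several gene groups. Values without it, or without another array that moved them, are given for the members and only in part for other genes. A value given alone may also depend on vector control replicate 1. Shoot markers fixed for the tissue check were all measured, 11 of 11, as were all 12 root markers.

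None of the 10 genes passed the test across all genes (limma with Benjamini-Hochberg adjustment, threshold 0.05). Over all 23394 genes tested, 5.17% were called in either direction, 2.65% as lower and 2.51% as higher in the overexpressor. At an unadjusted p under 0.05 there were 2 members, CML11 and CML37, where 30.8% of all genes stood. In 8 of 10 members the mean was lower in the overexpressor, and the median difference was -0.45 on the log2 scale, beside 0.032 over all genes tested, of which 46% had a negative difference. That median was -0.25 without vector control replicate 1. The 3 overexpressor values lay below all 3 control values for CML11, CML37 and CML41, 3 of 10 members, and for 17.6% of all genes. For 0 members did they lie above all control values, as they did for 23% of all genes. In seedling RNA, fewer cells of a type that expresses a gene and less RNA per cell cannot be told apart.

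**Figure D1:**
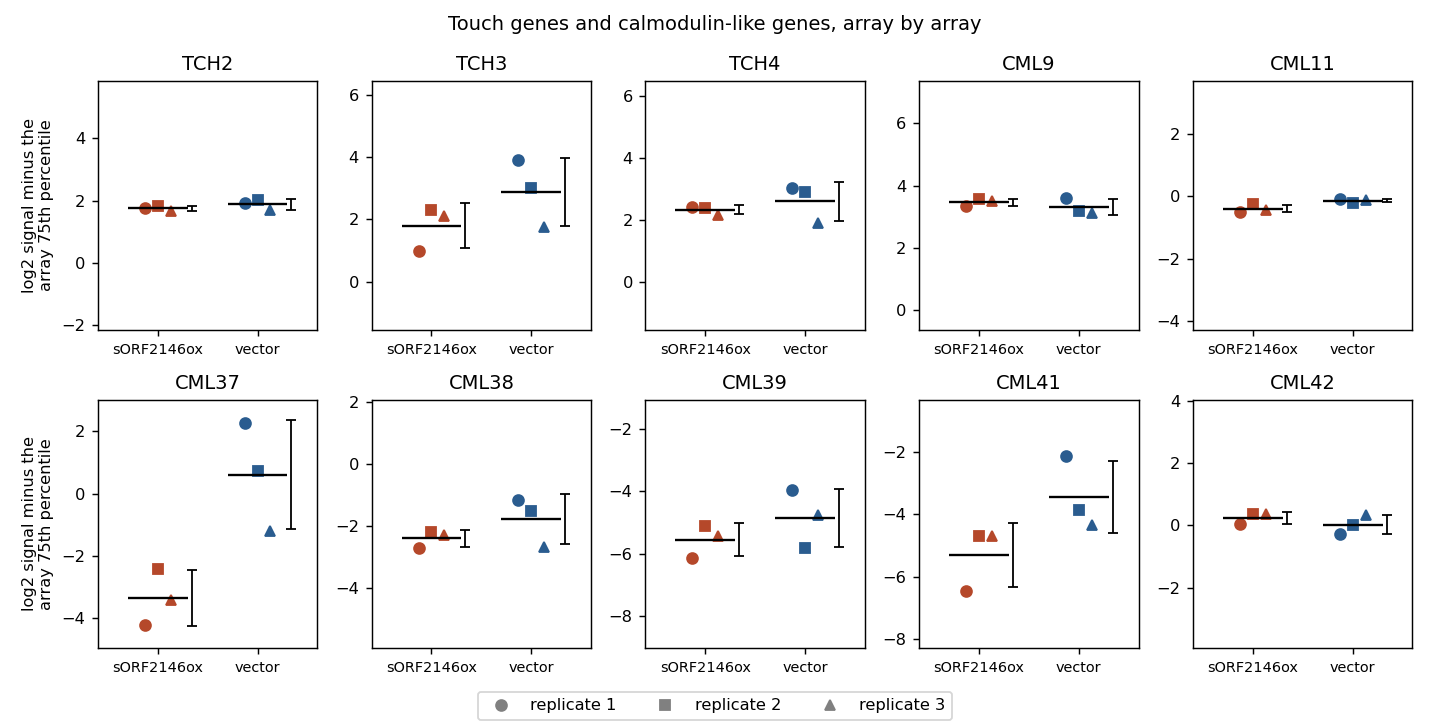
Log2 processed signal minus the 75th percentile of the array (vertical axis) for the 10 genes in the 3 sORF2146ox arrays (orange) and the 3 vector control arrays (blue). Lines are means, error bars are SD (n = 3), and every panel spans the same height; CML37 separates the groups by the widest margin, while the control arrays of TCH3, TCH4, CML37, CML38, CML39 and CML41 spread widely.

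CML37, a calcium sensor that promotes defence against chewing insects and responds to wounding, had the lowest level relative to the control. Its processed signal was 53.0, 154 and 85.6 in overexpressor replicates 1, 2 and 3, and 5682, 1869 and 476 in vector control replicates 1, 2 and 3. The groups did not overlap, and the control arrays differed among themselves more than the overexpressor arrays did. After scaling, which subtracts the array's 75th percentile from the log2 signal, the overexpressor lay at -3.35 ± 0.916 (SD, n = 3) and the control at 0.61 ± 1.75 (SD, n = 3). The difference was -3.96 (SE 0.945), a 15.6-fold lower mean, with a 95% interval from -6.29 to -1.63, and it did not pass over all genes (limma adjusted p = 0.0657). The gap between the highest overexpressor and the lowest control array was 1.2 on the log2 scale, within a control range of 3.49.

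CML37 passed only in a fit that left out a single array. Without vector control replicate 3, the lowest control array, the difference was -4.87 and passed (limma adjusted p = 0.0372), in a fit that called 5.04% of genes. Without vector control replicate 1 it was -3.12 (limma adjusted p = 0.0780). Leaving out any 1 overexpressor array, or vector control replicate 2, gave adjusted limma p-values from 0.1462 to 0.1855. Over all 16 alternatives the difference ranged from -4.87 to -2.82, and it passed in 1 of them. Only 0.248% of genes tested had a lower difference, which is a description since the genes were chosen with results of these arrays known. The protein-coding genes on either side of CML37, AT5G42370 and SPP, differed by 0.086 (95% interval -0.130 to 0.303) and 0.031 (95% interval -0.195 to 0.258).

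**Figure D2:**
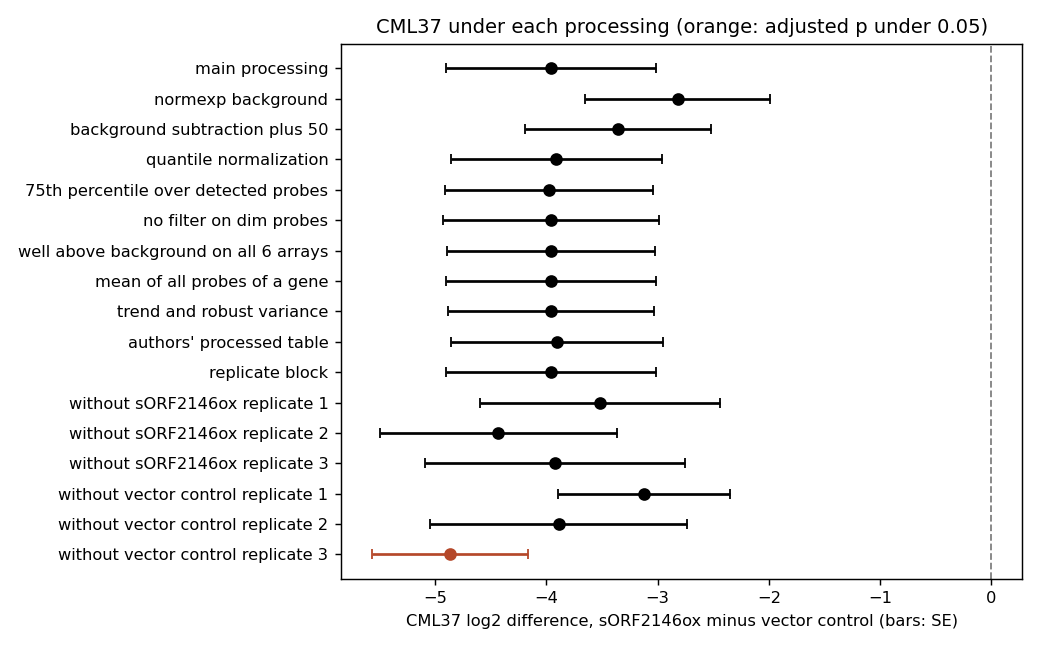
Log2 difference of CML37, sORF2146ox minus vector control (horizontal axis), with its SE under the main processing and 16 alternatives (vertical axis). All values lie left of 0, from -4.87 to -2.82, and the fit without vector control replicate 3 is the one that passed.

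CML41, which sits at plasmodesmata and takes part in callose deposition during immunity, was the other strongly variable member whose groups did not overlap. The overexpressor values were -6.48, -4.71 and -4.69 on the scaled log2 scale, and the control values -2.14, -3.87 and -4.35. Vector control replicate 1 was highest and overexpressor replicate 1 lowest, while the other 4 arrays lay within a narrower band. The difference was -1.84 (SE 0.746, 95% interval -3.67 to 0.001, limma adjusted p = 0.162), and it was -1.18 without vector control replicate 1. CML41 was dim, with signals from 11.2 to 266, and the difference was -0.83 when an offset of 50 was added to the background-subtracted signal.

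CML11, a calcium sensor close in sequence to the conserved calmodulins, differed little but evenly. Its values were -0.49, -0.25 and -0.43 in the overexpressor and -0.09, -0.20 and -0.11 in the control. The groups were separated by 0.05 on the log2 scale. The difference was -0.25 (SE 0.092, 95% interval -0.478 to -0.023, limma adjusted p = 0.137), and it was -0.23 without vector control replicate 1. CML11 was the only member whose SD was larger in the overexpressor (0.122) than in the control (0.058).

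Among the original touch genes, TCH3 (CML12), a calcium sensor known to bind the kinase PINOID, varied most. Its signal was 1979, 4048 and 3950 in the overexpressor and 17570, 9015 and 3707 in the control. Vector control replicates 1 and 2 were high, whereas vector control replicate 3 lay among the overexpressor arrays. The difference of -1.09 (SE 0.622, 95% interval -2.62 to 0.442) did not pass (limma adjusted p = 0.279). Leaving out vector control replicate 1 gave -0.58, and leaving out replicate 3 gave -1.66.

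TCH4 (XTH22), the cell wall enzyme, had a similar arrangement of arrays over a smaller range. Scaled log2 values were 2.44, 2.39 and 2.17 in the overexpressor and 3.05, 2.90 and 1.90 in the control. Vector control replicate 3 was the lowest of all 6, and the groups overlapped. TCH4 differed by -0.287 (SE 0.314, 95% interval -1.06 to 0.486, limma adjusted p = 0.558), by -0.0702 without vector control replicate 1, and by -0.645 without replicate 3 (limma adjusted p = 0.0545). TCH2 (CML24), a sensor linked to nitric oxide and to flowering time, was nearly level. It stood at 1.76, 1.84 and 1.68 in the overexpressor and at 1.94, 2.01 and 1.69 in the control. Its interval was narrow, from -0.388 to 0.157 around -0.116 (limma adjusted p = 0.505), and leaving out single arrays gave values from -0.211 to -0.051.

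CML38, which is induced by low oxygen and associates with RNA granules, and CML39, which acts in early seedling establishment, are neighbouring genes on chromosome 1. For CML38 the overexpressor values were -2.71, -2.18 and -2.30, and the control values -1.15, -1.50 and -2.66. For CML39 they were -6.14, -5.10 and -5.43 against -3.96, -5.83 and -4.76. The neighbours were both highest in vector control replicate 1 but not alike in the other control arrays, where CML38 was lowest in replicate 3 and CML39 in replicate 2. The differences were -0.622 for CML38 (95% interval -1.62 to 0.377, limma adjusted p = 0.335) and -0.705 for CML39 (95% interval -1.98 to 0.574, limma adjusted p = 0.39). Without vector control replicate 1 they were -0.31 and -0.26. The value furthest from 0 was -1.07 for CML38, without the control's replicate 3 (limma adjusted p = 0.0552), and -1.196 for CML39, without the control's replicate 2 (limma adjusted p = 0.185).

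CML9, a calmodulin-like protein of abscisic acid and salt responses, and CML42, which acts in trichome branching and restrains defence against insects, had means above the control. CML9 stood at 3.34, 3.57 and 3.50 in the overexpressor and at 3.61, 3.20 and 3.12 in the control. CML42 stood at 0.03, 0.36 and 0.36 against -0.27, 0.00 and 0.33. Both genes overlapped between groups. Their differences were 0.155 (95% interval -0.221 to 0.532, limma adjusted p = 0.516) and 0.228 (95% interval -0.223 to 0.679, limma adjusted p = 0.427). When single arrays were left out, CML9 ran from 0.06 (vector control replicate 3 omitted) to 0.305 (replicate 1 omitted), and CML42 from 0.082 (replicate 1 omitted) to 0.382 (replicate 3 omitted). CML42 was lowest in vector control replicate 1, the array in which 8 of the other members reached their highest value.

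**Figure D3:**
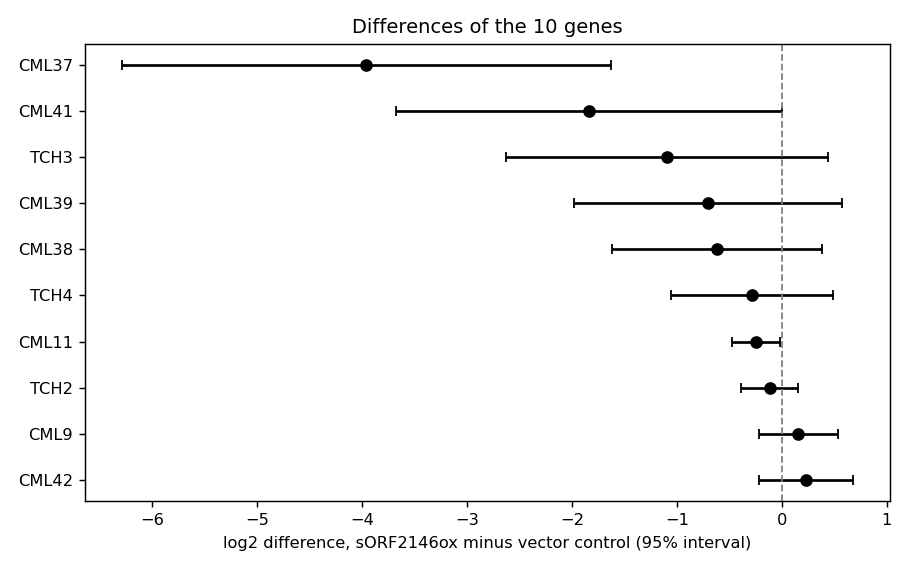
Fitted log2 difference, sORF2146ox minus vector control (horizontal axis), with its 95% interval for each of the 10 genes. The intervals of CML37 and CML11 exclude 0, that of CML41 ends at 0.001, and the unadjusted intervals do not account for the number of genes tested.

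Most members followed a common order of arrays within each group. Vector control replicate 1 was the highest of the 6 arrays for 8 of 10 members, against 26.4% of all genes tested, and overexpressor replicate 1 the lowest for 6 of 10, against 13.2%. Among the controls alone, replicate 1 was highest and replicate 3 lowest for TCH3, TCH4, CML9, CML37, CML38 and CML41, 6 of 10 members, an arrangement found in 24.7% of genes without a missing value. Among the overexpressors, replicate 1 was lowest for 8 of 10 members, against 29.9% of genes. The median deviation of the 10 genes from their mean over the 6 arrays was 0.75, 0.31 and -0.06 in the control replicates and -0.42, -0.01 and -0.22 in the overexpressor replicates.

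Spread within the control was large for several members. The control SD of CML37, 1.75, exceeded that of 99.4% of genes tested, and those of CML41, TCH3, CML39, CML38 and TCH4 exceeded that of 97.6%, 97%, 95.8%, 93.9% and 90.7%. In the overexpressor, the SD of CML41, CML37, TCH3 and CML39 exceeded that of 99%, 98.6%, 97.3% and 95.3% of genes. In 9 of 10 members the control SD was the larger, beside 65.3% of all genes. TCH2 and CML11 were steady in the control, above 50.4% and 12.5% of genes.

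**Figure D4:**
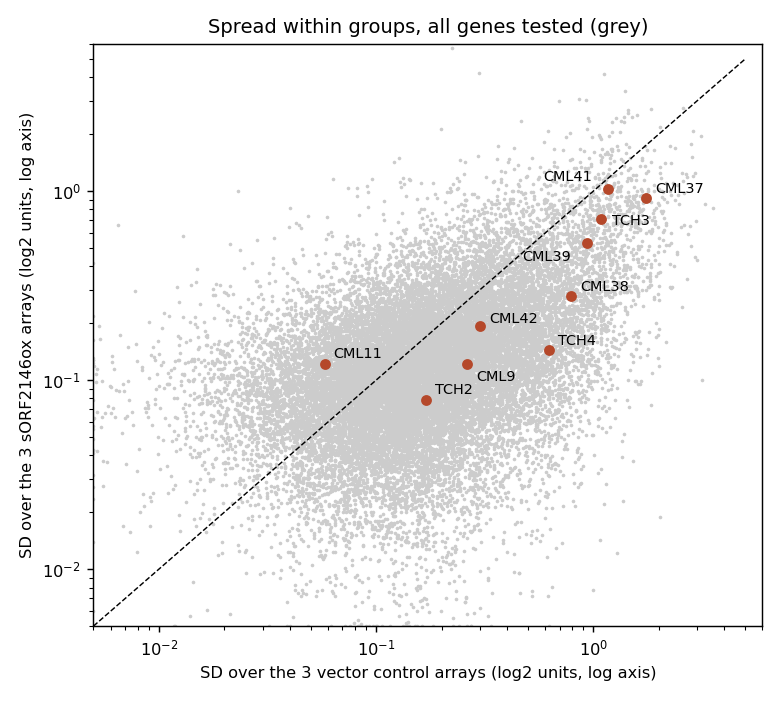
SD over the 3 sORF2146ox arrays (vertical log axis) against SD over the 3 vector control arrays (horizontal log axis), in log2 units, for all genes tested (grey) and the 10 named genes (orange). SDs below the axis minimum are drawn at it, and 9 of the 10 genes lie below the dashed line of equal SD.

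The conserved calmodulins, whose 7 genes were taken as a list, were lower rather than higher in vector control replicate 1. Of the 6 measured, 0 passed the test in either direction by limma, and 2 had an unadjusted p under 0.05, beside 30.8% of all genes. All 6 had a higher mean in the overexpressor, where 46% of all genes had a negative difference. The list median was 0.26, or 0.13 without vector control replicate 1. CAM6 (0.381, SE 0.101), CAM4 (0.312, SE 0.091) and CAM1 (0.233, SE 0.096) had adjusted limma p-values of 0.0778, 0.0908 and 0.167. Their groups did not overlap, 3 of 6 genes, beside 23% of all genes with the overexpressor above every control. CAM1 lies next to TCH2 on chromosome 5, where TCH2 differed by -0.116. The median deviation of the calmodulins from the mean of the 6 arrays was -0.33 in vector control replicate 1 and between -0.06 and 0.15 in the others.

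Of the other 41 loci listed as CML genes, 28 were measured, and 1 rose and 1 fell, where 5.17% of all genes were called. An unadjusted p under 0.05 was found for 14, beside 30.8% of all genes. The median was -0.16, or -0.21 without vector control replicate 1. AT2G27480 rose by 0.468 (SE 0.074, limma adjusted p = 0.0358), and AT4G26470 differed by 0.582 (limma adjusted p = 0.052) and passed in 2 of 16 alternatives. AT3G59440 fell, with a measured difference of -1.589 (SE 0.279, limma adjusted p = 0.0425). None of the 3 overexpressor arrays had it well above background, so it was tested through the control arrays only. Its fold is therefore a bound, at least 1.43. That bound was 1.27 without vector control replicate 3 and 1.67 without replicate 1. Leaving out any 1 overexpressor array, or vector control replicate 2, ended both calls, with adjusted limma p-values from 0.106 to 0.137, and leaving out vector control replicate 3 ended that of AT3G59440 (limma adjusted p = 0.0600). AT2G27480 passed in 9 of 16 alternatives and AT3G59440 in 4 of 15. The sign of AT3G59440 turned with normexp background, to 0.081, and with background subtraction plus 50, to 0.013. CML23, the close relative of TCH2, differed by -0.89 and did not pass (limma adjusted p = 0.0746), but it did without vector control replicate 3, at -1.15 (limma adjusted p = 0.0182). Without vector control replicate 1 it was -0.746 and did not pass (limma adjusted p = 0.114). AT2G41090, the neighbour of TCH3, differed by -1.004 (SE 0.281, 95% interval -1.70 to -0.312, limma adjusted p = 0.0847), with groups that did not overlap. In 10 of these 28 loci the overexpressor lay below the control on every array, and in 4 above it, beside 17.6% and 23% of all genes. AT3G59440 is among the 10, and it and AT1G05990 are among the 14 with an unadjusted p under 0.05. Both entered the test only because they were well above background on the control arrays, so their direction was favoured in advance.

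The other xyloglucan endotransglucosylase/hydrolase (XTH) genes, the family of TCH4, had more means above the control than below it. Of 32 listed, 28 were measured and 0 passed by limma, with 12 at an unadjusted p under 0.05, beside 30.8% of all genes. XTH29, tested through the control arrays only, was among these 12. A higher mean in the overexpressor was found for 20, where 46% of all genes had a negative difference. The median was 0.21. It came to 0.027 once vector control replicate 1 was left out, and lay between 0.12 and 0.40 when any other array was left out. XTH16 differed by -0.855 (limma adjusted p = 0.0532) and passed as lower in 4 of 16 alternatives, among them quantile normalization. Of the genes with higher means, XTH4 differed by 0.891 (limma adjusted p = 0.0854) and XTH6 by 1.00 (limma adjusted p = 0.101). XTH4 passed without vector control replicate 1, at 0.61 (limma adjusted p = 0.0497). XTH25, the neighbour of TCH4, was well above background on 1 array and was not tested.

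Touch-induced genes outside the CML family were also highest in vector control replicate 1 in most cases, 15 of 21 measured. Of 25 listed, 21 were tested. Of these 21, 0 passed by limma, and 8 had an unadjusted p under 0.05, beside 30.8% of all genes. A lower mean in the overexpressor was found for 19, beside 46% of all genes. The list median was -0.85, or -0.61 without vector control replicate 1. ZAT12, a zinc finger protein of the stress response, was at -1.99, -1.21 and -1.72 in the overexpressor and at 2.47, 1.51 and -0.77 in the control. The difference was -2.71 (SE 0.82, limma adjusted p = 0.0963), or -2.01 without vector control replicate 1. SZF2, a CCCH zinc finger protein, differed by -0.83 (limma adjusted p = 0.0918), and LOX3, a lipoxygenase of jasmonate synthesis, by -0.855 (limma adjusted p = 0.101). The list median lay 1.06 and 0.63 above the mean of the 6 arrays in vector control replicates 1 and 2, and at -0.22 in replicate 3, close to the overexpressor arrays at -0.66, -0.37 and -0.30. Without vector control replicate 3, 6 of 22 fell, CAF1a, CBF2, LOX4, RRTF1, WRKY40 and ZAT12. That fit called 5.04% of all genes, 826 as lower and 365 as higher. RRTF1 was not tested in the main fit. It entered this one only because it was well above background in vector control replicates 1 and 2, so its direction was favoured in advance.

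**Figure D5:**
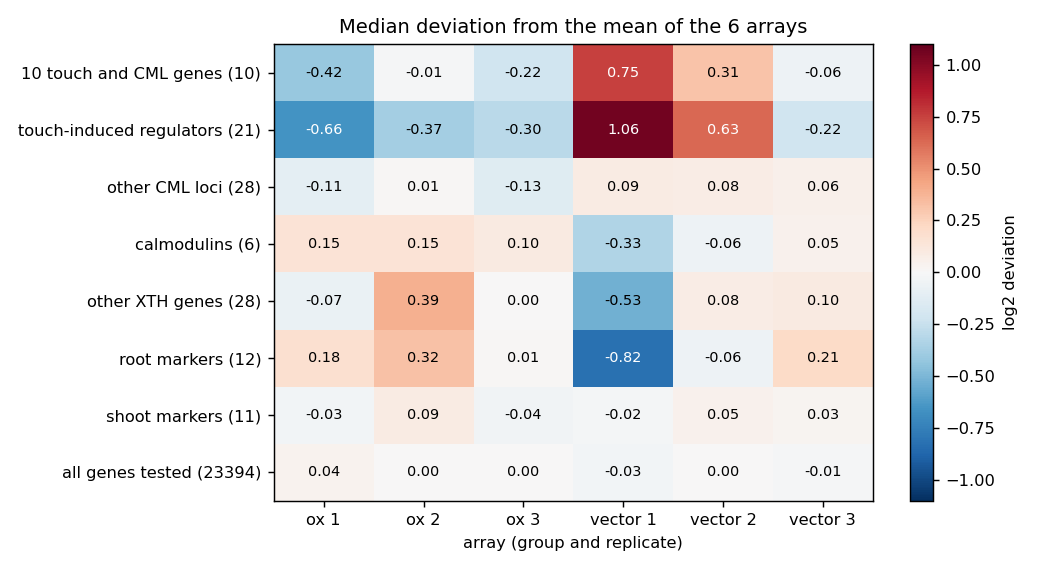
Median log2 deviation of each gene list from the mean of the 6 arrays (colour and printed value), for lists (rows, with the number of genes measured) and arrays (columns). Vector control replicate 1 is highest for the 10 genes, at 0.75, and for touch-induced regulators, at 1.06, and lowest for root markers, at -0.82.

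Genes around the calcium signal were measured as well. Of 16 genes for mechanosensing and calcium transport, 1 rose and 0 fell, where 5.17% of all genes were called. The median was 0.15, or 0.14 without vector control replicate 1. MCA2, a stretch-activated calcium channel component, rose by 0.468 (SE 0.091, limma adjusted p = 0.0484). Leaving out any 1 of the 6 arrays ended that call, with adjusted limma p-values from 0.056 to 0.161. MCA2 passed in 6 of 16 alternatives. ACA13, a calcium pump of the autoinhibited family, was at -5.53, -3.94 and -4.76 in the overexpressor and at 0.79, -0.34 and -2.44 in the control. Its difference of -4.08 (SE 0.873) did not pass (limma adjusted p = 0.0556), but did in 2 of 16 alternatives, without vector control replicate 3, at -4.97 (limma adjusted p = 0.0256), and with trend and robust variance (limma adjusted p = 0.0456). Without vector control replicate 1 the ACA13 difference was -3.35 and did not pass (limma adjusted p = 0.0692). CNGC4, a cyclic nucleotide-gated channel, at -1.01 (limma adjusted p = 0.0527), passed in 2 of 16, with background subtraction plus 50 (limma adjusted p = 0.0404) and with trend and robust variance (limma adjusted p = 0.0447). Among 6 CAMTA genes, which encode calmodulin-binding transcription activators, 0 passed by limma, none had an unadjusted p under 0.05, and the differences lay between -0.28 for AT3G16940 and 0.28 for AT1G67310, with CAMTA2 at 0.124. Of 5 genes for proteins that bind calmodulin or CMLs, 0 passed by limma and 1 had an unadjusted p under 0.05, beside 30.8% of all genes. That gene was CBP60G, a calmodulin-binding regulator of immunity, at -1.54 (limma adjusted p = 0.0837), or -1.07 without vector control replicate 1. PRR2, a transcription factor that binds CML9, differed by -0.252 and AT3G59950 by 0.068.

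The genes most like the members over the 6 arrays were sought among 3522 other genes with an SD of at least 0.5, by Pearson correlation with the mean centred profile of the 10 genes, to which CML37 contributes most. The 5 closest were AT3G63380 (ACA12, a calcium pump of the family of ACA13), ATAF2 (a NAC transcription factor), AT2G43865, AT4G01870 and UCP5, a mitochondrial carrier of the inner membrane, with r between 0.991 and 0.999 over 6 arrays that fall into 2 groups. ACA12 was at -2.18, -0.64 and -0.98 in the overexpressor and at 1.85, 0.33 and -0.53 in the control, and it did not pass (difference -1.81, SE 0.696, limma adjusted p = 0.147). With vector control replicate 1 omitted, ACA12 differed by -1.16. None of the other 4 passed either, with differences from -1.84 to -0.91. The value of -1.84 is that of AT2G43865, at -8.22, -6.98 and -7.48 in the overexpressor. Each lay below the lowest signal well above background on its array. AT2G43865 was thus tested through the control arrays only, and its difference and its r rest in part on background signal.

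Root markers as a list also set vector control replicate 1 apart, while shoot markers did not. Of the 12 root markers, 11 had a higher mean in the overexpressor, where 46% of all genes had a negative difference. By limma 0 passed, with 3 at an unadjusted p under 0.05, beside 30.8% of all genes. The list median was 0.37, or 0.14 without vector control replicate 1 and 0.67 without the control's replicate 3. PLT1 (0.867), MYB36 (0.336) and WOX5 (-0.568) had the smallest p-values, and PLT1 passed without vector control replicate 1, at 0.58 (limma adjusted p = 0.0471). The list's median deviation was -0.82 in vector control replicate 1, against -0.06 and 0.21 in the other controls and 0.01 to 0.32 in the overexpressor. Some root markers did not follow the median: NRT2.1 was highest of the 6 arrays in vector control replicate 1, at -1.86. MYB36 and SHR were highest of the controls there, at -1.85 and 1.33. The median of the 11 shoot markers stayed between -0.04 and 0.09 on every array. KAN1 rose by 0.471 (SE 0.08, limma adjusted p = 0.041), 1 of 11 markers, where 5.17% of all genes were called. That call ended without any 1 of the 6 arrays and held in 7 of 16 alternatives, while AS1 (-0.286) and FIL (0.266) did not pass. EM1, a seed protein, was at 0.80, -1.77 and -5.47 in the control and not well above background on any overexpressor array. It was thus tested through the control arrays only, so its direction was favoured in advance. Its fold is a bound, at least 24.6 (limma adjusted p = 0.0595, and 0.0179 without vector control replicate 3). That bound was 8.85-fold with the control's replicate 1 omitted and 77.7-fold with replicate 3 omitted, while EM6 differed by -0.435 and CRA1 and OLEO1 were well above background on 0 arrays and 1 array. The part of these markers in the values of the 10 genes was not tested.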

How the data were processed

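RNA of 6 seedling samples, 3 per group, was measured on one-colour Agilent arrays, with Cy3 label made from 200 ng of RNA, per the labels. Spot intensity was extracted with Agilent Feature Extraction 11.5.1.1 (file headers and the submitters' processing notes); per the file headers, its processed signal has background and spatial trends removed within an array, with no normalization between arrays. Outlier and well-above-background spots were taken from the software's flags (other values, 0 or 1, per the file headers). A deposited table of intensity, with no method given in the sources used here, had equal sorted values in all columns for 96.3% of ranks (relative tolerance 1e-06) and served as an alternative.

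Log2 processed signal was reduced by each array's 75th percentile over 35635 probes, outlier spots were set to missing, and probes well above background on all 3 arrays of either group were kept, using the brightest probe per gene. Groups were compared with lmFit and eBayes (limma 3.58.1, R 4.3.3), and p-values were adjusted after Benjamini-Hochberg over 23394 genes. The fit was checked on simulated data. For a gene below background in 1 group, the fold is a bound, taken against that group's mean after raising each array to its lowest signal well above background. Replicates are biological per the series' design text, and their number limits precision. The normexp alternative used median signals, as the files used here hold no mean signals.

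Members and lists were chosen with earlier results of these data known. All members were described, and of each list the genes that passed, or those with the smallest adjusted p up to 3. CML23, AT2G41090, XTH25 and the genes beside CML37 were named for kinship or position, and others after their values were seen. Gene names come from RefSeq (TAIR10.1) or the member list; that table also gives CML39 as a synonym of CML37 (AT5G42380). For 42 of 169 listed genes the symbol was not in the table, which names them here. Coordinates are not printed, since the array design names another build. Figures were drawn with matplotlib 3.10.9.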

Additional observations from a re-analysis of the deposited data

How the results depend on the processing

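All 16 alternatives kept the sign of each of the 10 genes, and 0 of them passed by limma except without vector control replicate 3, where 1 passed, CML37. The median difference of the 10 genes stayed between -0.65 and -0.25 when single arrays were left out and between -0.47 and -0.27 under the others. Over all genes tested, the 1209 calls became 4 with normexp background correction, 188 with no filter on dim probes and between 35 and 1191 when single arrays were left out (35 without vector control replicate 2, and 46, 49 and 51 without overexpressor replicates 1, 2 and 3); the cause was not tested. The split of higher to lower calls was 588 to 621, and it was 779 to 488 with quantile normalization, 775 to 487 with the authors' processed table, 403 to 620 with the percentile over detected probes and 1189 to 606 with background subtraction plus 50. The offset of 50 draws dim values together, and CML41 was -0.55 with normexp. The replicate block gave 14 calls over all genes and 0 among the 10; the labels do not say that numbers pair the samples, and correlations between same-numbered arrays' deviations were -0.0857, -0.000468 and -0.0226. Bounds with single arrays omitted were added after the data were seen.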
